A study of Mus musculus with 9 samples.

Results

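Iron handling and heme breakdown in the mouse heart were followed through 9 genes taken by symbol: Tfrc, Steap3, Slc11a2, Slc40a1, Hamp, Fth1, Ftl1, Hmox1 and Blvrb. Of these, 8 had a row among the 22851 genes of the count table, and Hamp, the gene of the iron hormone hepcidin, was not analysed here. All 8 passed the filter on low counts in each comparison. The list was chosen with earlier results of these data known, so its counts beside the shares of all genes are a description only.

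In most cells, iron arrives bound to transferrin and enters through the transferrin receptor (Tfrc). Inside the endosome the ferrireductase Steap3 reduces it, the transporter DMT1 (Slc11a2) carries it into the cytosol, ferritin heavy and light chains (Fth1 and Ftl1) store it, and ferroportin (Slc40a1) exports it. Heme oxygenase 1 (Hmox1) opens the heme ring and frees its iron, and biliverdin reductase B (Blvrb) reduces biliverdin and flavins. When cytosolic iron is low, the iron regulatory proteins bind hairpins in messenger RNAs called iron-responsive elements, which blocks translation from a hairpin in the 5′ UTR and slows decay of the Tfrc message through hairpins in its 3′ UTR.

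Messenger RNA enriched from total RNA of the myocardium was sequenced in 3 groups of 3 libraries each, all from mice labelled C57BL/6, which the study's methods give as C57BL/6J males 6 to 8 weeks old at the start. The CK group was the normal control, which received the buffer only. The DCM group was a diabetic cardiomyopathy model kept for 12 weeks after an injection of streptozotocin, a toxin of the insulin-producing beta cells, and the SPM group was the same diabetic model with spermine, a natural polyamine, given from 2 weeks before streptozotocin and for 12 weeks after it. No group received spermine without diabetes. The study's methods describe a library both as 1 mouse and as a pool of hearts, so the p-values below measure the spread between these libraries only.

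The hairpins by which this pathway reads iron are shown for Fth1, Ftl1, Slc40a1 and Tfrc, whose messages the iron regulatory proteins are known to bind. Annotated UTRs (GENCODE M21, GRCm38) were searched on the transcript strand for a hairpin of 27 bases with the loop letters CAGTG, 5 paired bases next to the loop, an unpaired C before them, and at least 4 of 5 paired bases beyond. Such a hairpin was found in the 5′ UTR of 6 of 20200 genes (0.0297%) and in the 3′ UTR of 11 of 20884 genes (0.0527%). Among the members, Fth1, Ftl1 and Slc40a1 had a match in the 5′ UTR and Tfrc had 4 matches in the 3′ UTR. No match to these letters was found in the UTRs of Slc11a2, Hmox1, Blvrb and Steap3. A match is a description of the sequence and was not tested for binding. The pattern is strict, so a missing match does not show that a message lacks an iron-responsive element. In the sequences below, written 5′ to 3′ in transcript sense, the capitals mark the loop letters.
Fth1, 5′ UTR, chr19:9982733-9982759, plus strand: tcctgcttcaaCAGTGcttgaacggaa
Ftl1, 5′ UTR, chr7:45459780-45459806, minus strand: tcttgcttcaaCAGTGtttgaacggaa
Slc40a1, 5′ UTR, chr1:45925466-45925492, minus strand: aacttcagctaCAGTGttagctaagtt
Tfrc, 3′ UTR, chr16:32631220-32631246, plus strand: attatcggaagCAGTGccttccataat
Tfrc, 3′ UTR, chr16:32631599-32631625, plus strand: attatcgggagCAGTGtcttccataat
Tfrc, 3′ UTR, chr16:32631664-32631690, plus strand: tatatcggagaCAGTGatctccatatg
Tfrc, 3′ UTR, chr16:32631711-32631737, plus strand: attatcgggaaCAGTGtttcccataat

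Counts per library summed to between 29901300 and 39718680. The share of counts on mitochondrial genes was highest in the SPM libraries, at 21.01% to 21.09%, against 13.7% to 16.2% for the CK libraries and 15.5% to 18.9% for those of DCM. The RNA protocol names retinas whereas the tissue label names heart. The 8 matched cardiomyocyte markers were all at 1 CPM (counts scaled to library size) or more in every library, and the 7 matched retina markers summed to at most 1.79 CPM. SPM replicate 2 stood apart from the other libraries: 69.0% of 11990 genes lay between the values of SPM replicates 1 and 3, against 14.4% to 41.0% for the other libraries, and its counts were close to a mixture of 45.1% SPM replicate 1 with SPM replicate 3. The median squared deviation from that mixture, in units of counting noise, was 0.401, where counting noise alone gives 0.455, and the next smallest of 252 such combinations gave 1.23. SPM changes that passed the adjusted p are therefore given below without SPM replicate 2 as well. Group means, group ranges, overlap counts and differences that did not pass keep that library. A mixture lies between its parts, so an order over the SPM replicates holds little beyond the contrast of replicates 1 and 3. Markers of other cell types moved between libraries as well. The 12 hepatocyte markers summed to 420.1, 205.6 and 31.6 CPM in SPM replicates 1, 2 and 3, to 15.1 to 59.0 CPM in CK and to 28.7 to 32.4 CPM in DCM. In each DCM library and in SPM replicate 3, Ahsg was the only one of these 12 at 1 CPM or more. It was at 26.1 to 30.02 CPM there, against 9.75 to 12.6 CPM in CK, and Alb was at most 0.352 CPM there. The sums of these libraries are thus mostly Ahsg. At 0 were Fgb, Fga, Serpina1a and Hpx in SPM replicate 3, 3 to 4 markers in each DCM library and Fgg in CK replicate 3. The 10 matched erythroid markers, led by the globin genes Hbb-bs and Hba-a1, summed to 1557 to 3631 CPM in CK, 1342 to 3295 CPM in DCM and 773.6 to 1311 CPM in SPM, with Epb42 or Rhag at 0 in 8 of the 9 libraries. The 15 macrophage markers summed to 848.0 to 1108 CPM in CK, 733.3 to 854.1 CPM in DCM and 878.6 to 1449 CPM in SPM, with Spic at 0 in DCM replicate 2. In bulk tissue, fewer cells of a type and less RNA per cell cannot be told apart.

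Levels of different genes can be compared per length, as FPKM (fragments scaled to gene length and library size). Fth1 was the most abundant member by far, at 2960 ± 83.9 FPKM in CK (mean ± SD, n = 3), followed by Ftl1 at 151 ± 14.9 FPKM. Blvrb (15.5 ± 2.85 FPKM), Hmox1 (13.1 ± 1.58 FPKM) and Slc40a1 (12.5 ± 0.781 FPKM) came next in CK, and the CK libraries of these 3 genes overlapped. Steap3 (9.998 ± 0.736 FPKM), Slc11a2 (6.35 ± 0.0594 FPKM) and Tfrc (2.66 ± 0.400 FPKM) followed, each below the gene before it without overlap. In SPM the lower end of this order closed up, with Slc11a2 at 6.31 ± 0.206 FPKM, Steap3 at 6.26 ± 0.0446 FPKM and Tfrc at 5.96 ± 0.204 FPKM. The SPM libraries of Slc11a2 overlapped with those of Steap3 and with those of Tfrc, and each Tfrc library was below each Steap3 library. Fth1 alone took 0.248% to 0.343% of all counts in a library.

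**Figure D1:**
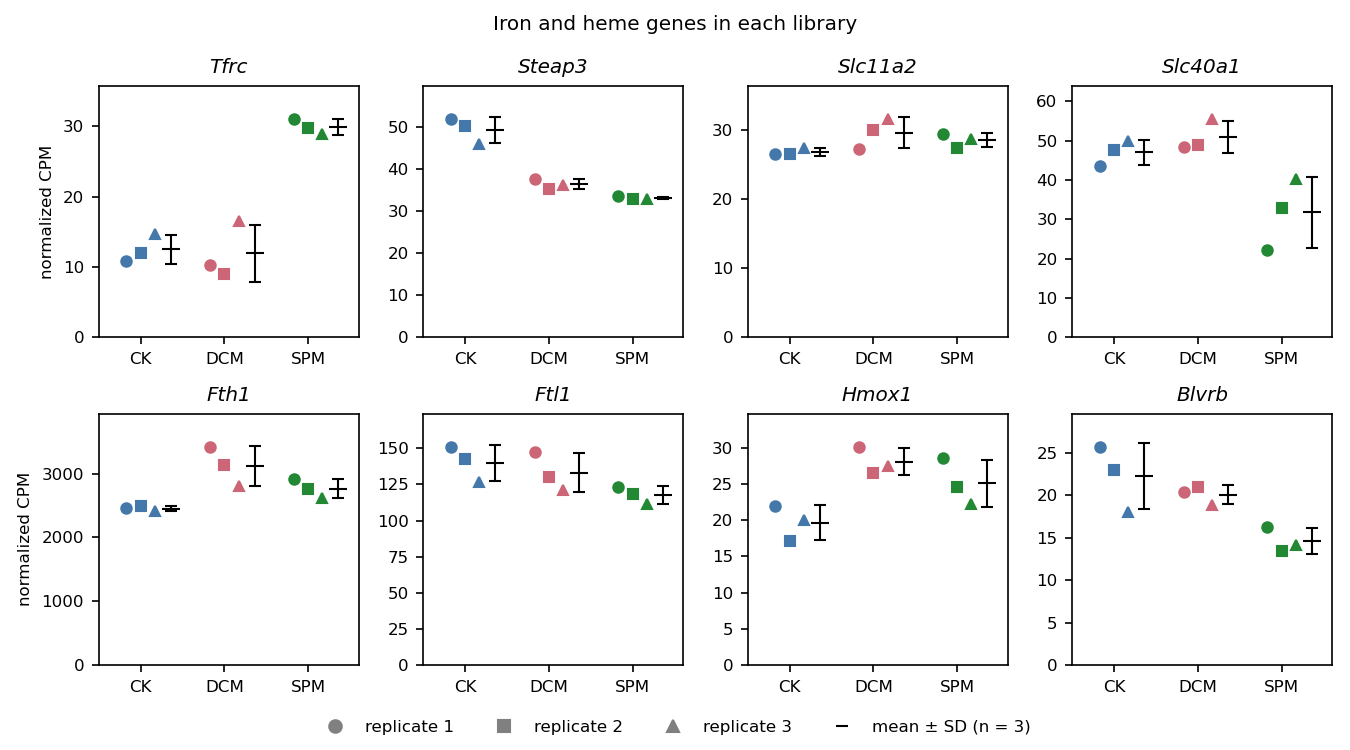
Normalized CPM (y axis, from 0) of the 8 iron and heme genes in each library of CK, DCM and SPM, with symbols for replicates 1 to 3 and the mean ± SD (n = 3) beside them. The SPM libraries of Tfrc sit between 28.9 and 31.1 CPM, all above the highest other library at 16.6 CPM.

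Diabetic hearts were first compared with normal hearts. Among the members, Hmox1 and Fth1 rose and Steap3 fell in DCM compared to CK, each by less than 1.5-fold. A gene is called a differentially expressed gene (DEG) below at an edgeR quasi-likelihood test's Benjamini-Hochberg adjusted p under 0.05 and a fold change of at least 1.5, and is said to rise or fall where the adjusted p alone was under 0.05. By these rules 0 of the 8 members were DEGs, against 4.34% of 14402 genes tested, and 3 of 8 passed at the adjusted p alone (2 higher, 1 lower), against 10.4% of all genes (5.28% higher, 5.11% lower). DESeq2 also gave 0 member DEGs and 3 members past its adjusted p, against 693 and 1744 of 22105 genes. At an unadjusted p under 0.05 the same 3 members passed. For that limit no share of all genes was counted, so this is a description only. Counted on normalized CPM here and below, the groups did not overlap for 3 of 8 members, against 29.3% of all genes tested.

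Spermine-treated diabetic hearts were next compared with untreated diabetic hearts. Tfrc rose 2.50-fold and ferroportin (Slc40a1) fell to 0.623 of its DCM level, and Blvrb fell to 0.726. Of 8 members, 2 were DEGs, against 3.59% of 14493 genes tested, and 3 passed at the adjusted p alone (1 higher, 2 lower), against 16.6% (8.87% higher, 7.76% lower). The groups did not overlap for 4 of 8 members, against 39.2% of all genes. Without SPM replicate 2, Tfrc was the only member past the adjusted p, against 0.486% of 14828 genes. Against CK, SPM hearts had higher Tfrc and lower Blvrb, Steap3, Slc40a1 and Ftl1. There, 2 of 8 members (Tfrc and Blvrb) were DEGs, against 9.21% of 14574 genes tested, 5 of 8 passed at the adjusted p alone (1 higher, 4 lower), against 27.4% (13.0% higher, 14.3% lower), and the groups did not overlap for 7 of 8 members, against 46.3%. Without SPM replicate 2, Tfrc and Steap3 passed this comparison, against 10.4% of 14897 genes. The 3 comparisons share their libraries pairwise, so the values of a member are set side by side and are not independent.

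**Figure D2:**
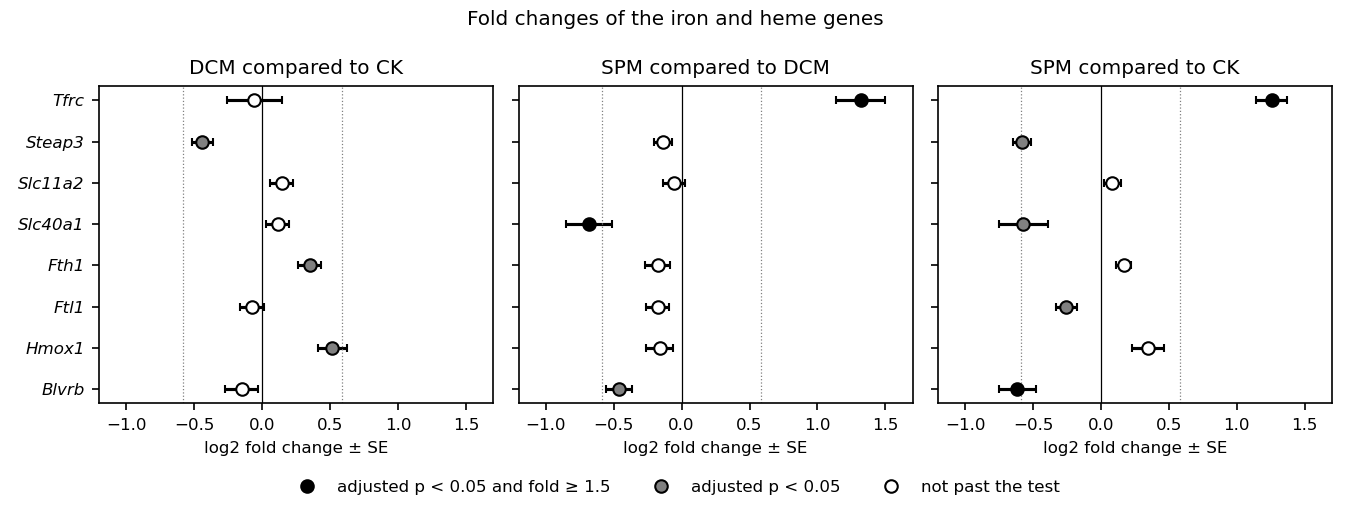
Log2 fold change with its standard error (x axis) of the 8 members (y axis) in DCM compared to CK, SPM compared to DCM and SPM compared to CK, with dotted lines at a fold change of 1.5. Filled points are DEGs, grey points passed the adjusted p alone and open points passed neither, and Tfrc is the member farthest from 0, at 1.32 in SPM compared to DCM and 1.26 in SPM compared to CK.

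The uptake receptor had the largest fold change of the 8 members. Tfrc (ENSMUSG00000022797, chr16:32608920-32632794 on GRCm38, plus strand) was at 10.8, 11.9 and 14.7 normalized CPM in CK replicates 1 to 3, at 10.3, 9.004 and 16.6 CPM in the DCM libraries and at 31.1, 29.7 and 28.9 CPM in the SPM libraries. The SPM libraries were all high and lay close together, and CK and DCM overlapped throughout. The log2 fold change was 1.32 ± 0.18 (SE) in SPM compared to DCM (edgeR adjusted p = 0.00799) and 1.26 ± 0.11 in SPM compared to CK (edgeR adjusted p = 0.000512). In DCM compared to CK it was -0.06 ± 0.20, with an interval of 2 standard errors from -0.46 to 0.35 (edgeR adjusted p = 0.904). Without SPM replicate 2 the change against DCM was 1.33 (edgeR adjusted p = 0.0217) and that against CK was 1.26 (edgeR adjusted p = 0.00333). Within SPM, Tfrc and the hepatocyte sums were both highest in replicate 1 and lowest in replicate 3, and the change against DCM without SPM replicate 1 was 1.29 (edgeR adjusted p = 0.00376). Red cell precursors are rich in this receptor, and the erythroid sums given above were lower in each SPM library than in each CK and DCM library. The part of these cells in the Tfrc result was not tested. Fold changes of all genes were related to their GC content in the SPM comparisons, with a Spearman rho of -0.502 across 14484 genes in SPM compared to DCM and -0.366 across 14564 genes in SPM compared to CK, and Tfrc is an AT-rich message at 39.8% GC. With an offset for GC content, its change was 1.03 against DCM (edgeR adjusted p = 0.0252) and 0.96 against CK (edgeR adjusted p = 0.000529).

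Steap3, the endosomal ferrireductase that acts after the receptor, moved the other way and did so already in diabetes. Steap3 (ENSMUSG00000026389, chr1:120190757-120272705, minus strand) was at 51.9, 50.2 and 45.9 CPM in CK, at 37.6, 35.3 and 36.1 CPM in DCM and at 33.5, 33.0 and 32.9 CPM in SPM. Each DCM library was below each CK library, and each SPM library was below each DCM library. It fell by 0.44 ± 0.08 on the log2 scale in DCM compared to CK (edgeR adjusted p = 0.00376) and by 0.58 ± 0.07 in SPM compared to CK (edgeR adjusted p = 0.00116), which is 0.669 of the CK level and just short of the fold limit. The fall against CK passed in each fit that left out 1 library, including that without SPM replicate 2 (-0.58, edgeR adjusted p = 0.0103). In SPM compared to DCM the difference was -0.14 ± 0.06, with an interval from -0.27 to -0.01, and did not pass (edgeR adjusted p = 0.164).

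DMT1, which moves ferrous iron out of the endosome, passed the test in no comparison. Slc11a2 (ENSMUSG00000023030, chr15:100387898-100425072, minus strand) was at 26.6, 26.5 and 27.5 CPM in CK, at 27.3, 30.02 and 31.7 CPM in DCM and at 29.5, 27.5 and 28.7 CPM in SPM. All 3 groups overlapped. Its log2 differences were 0.14 ± 0.08 in DCM compared to CK (edgeR adjusted p = 0.329), -0.06 ± 0.08 in SPM compared to DCM (edgeR adjusted p = 0.653) and 0.08 ± 0.06 in SPM compared to CK (edgeR adjusted p = 0.358). The intervals of 2 standard errors were -0.03 to 0.31, -0.21 to 0.10 and -0.05 to 0.21. Counts per gene do not separate the Slc11a2 messages with and without an iron-responsive element.

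Ferroportin, the iron exporter, was lowest in the SPM group and also most variable there. Slc40a1 (ENSMUSG00000025993, chr1:45908068-45926523, minus strand) was at 43.5, 47.5 and 49.98 CPM in CK, at 48.3, 48.8 and 55.6 CPM in DCM and at 22.1, 32.9 and 40.2 CPM in SPM. Every SPM library was below every CK and DCM library, but the SPM libraries themselves spanned a range wider than the gap to the other groups. In SPM compared to DCM it fell by 0.68 ± 0.17 on the log2 scale (edgeR adjusted p = 0.0258), and in SPM compared to CK by 0.57 ± 0.18 (edgeR adjusted p = 0.045). DCM compared to CK gave 0.12 ± 0.08, with an interval from -0.05 to 0.28 (edgeR adjusted p = 0.445). The call against DCM was lost in 5 of the 6 fits that left out 1 library. Those without DCM replicate 1, 2 or 3 gave -0.73, -0.71 and -0.63 (edgeR adjusted p = 0.0723, 0.096 and 0.0832). Without SPM replicate 2 the value was -0.71 (edgeR adjusted p = 0.0748), and without SPM replicate 1 it was -0.48, which passed the test (edgeR adjusted p = 0.0137) but not the fold limit. Against CK the fall passed in 2 of the 6 fits that left out 1 library. It was lost without SPM replicate 2 (-0.60, edgeR adjusted p = 0.105) or any CK library, with edgeR adjusted p from 0.0777 to 0.117 over these 4 fits, and was -0.37 without SPM replicate 1 (edgeR adjusted p = 0.039). With the GC offset the fall was -0.92 against DCM (edgeR adjusted p = 0.0324).

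Tissue macrophages recycle red cells and are known for high ferroportin, so the marker sums are given beside it. In SPM replicates 1, 2 and 3 the macrophage markers summed to 1449, 1110 and 878.6 CPM, with Lyz2 at 606, 425 and 337 CPM and Csf1r at 124, 109 and 95.3 CPM. Slc40a1 ran from 22.1 to 40.2 CPM in the opposite order. The hepatocyte sums fell in that order too (420.1, 205.6 and 31.6 CPM), and the erythroid sums rose (773.6, 1053 and 1311 CPM). With SPM replicate 2 close to a mixture of replicates 1 and 3, these orders hold little beyond the contrast of replicates 1 and 3. In CK and DCM, the library with the highest macrophage sum also had the lowest Slc40a1 of its group. The part of these cells in the Slc40a1 result was not tested. The ratio of Tfrc counts to Slc40a1 counts, uptake over export, was 0.248, 0.251 and 0.294 in CK, 0.213, 0.185 and 0.299 in DCM and 1.40, 0.904 and 0.718 in SPM. This ratio was chosen after the values of both genes were seen and carries no test.

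**Figure D3:**
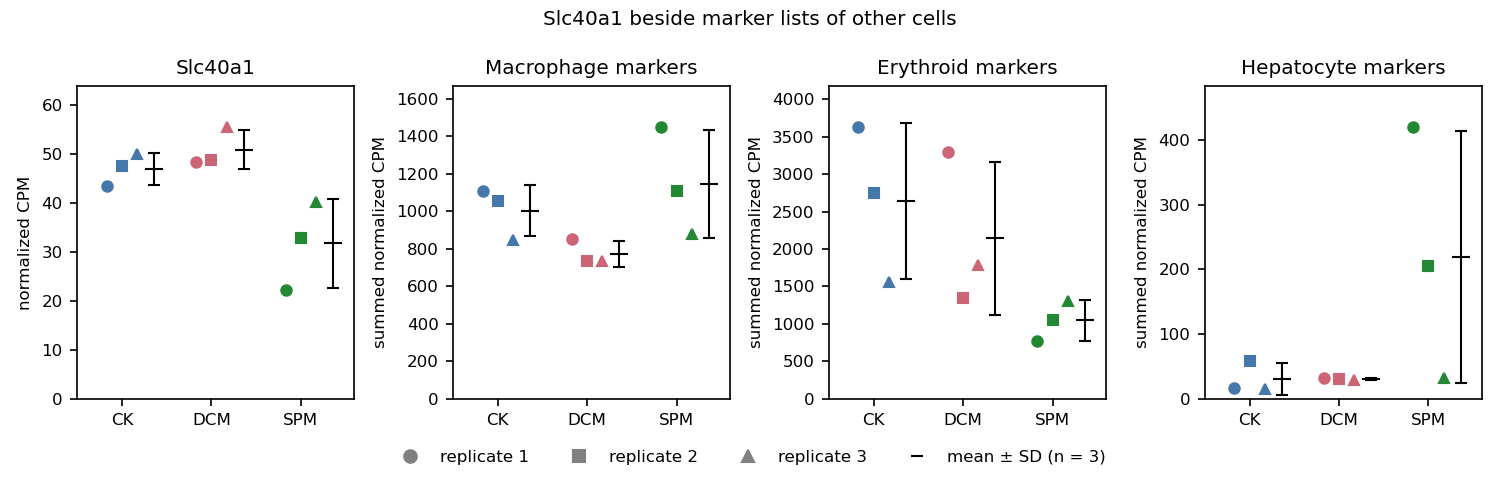
Normalized CPM of Slc40a1 and the summed normalized CPM of macrophage, erythroid and hepatocyte markers (y axes, from 0) in each library, with the mean ± SD (n = 3). In SPM, Slc40a1 is lowest in replicate 1 at 22.1 CPM, where macrophage markers (1449 CPM) and hepatocyte markers (420.1 CPM) are highest.

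Among the storage genes, the heavy chain rose in diabetes and the light chain was lower with spermine than in CK. Fth1 (ENSMUSG00000024661, chr19:9980598-9985098, plus strand), whose product oxidizes iron as it enters the ferritin shell, was at 2462, 2487 and 2408 CPM in CK, at 3428, 3133 and 2803 CPM in DCM and at 2915, 2755 and 2624 CPM in SPM. All DCM and SPM libraries were above all CK libraries, and DCM and SPM overlapped. In FPKM, which carries no normalization factor, SPM replicate 3 (2958) was below CK replicate 2 (3029). In DCM compared to CK it rose by 0.35 ± 0.09 on the log2 scale (edgeR adjusted p = 0.0216). This passed in 2 of the 6 fits that left out 1 library, not without DCM replicate 1 or any CK library, with values from 0.28 to 0.43 across the 6. SPM compared to CK gave 0.17 ± 0.05 (edgeR adjusted p = 0.0513) and SPM compared to DCM gave -0.18 ± 0.09, with an interval from -0.36 to 0.01 (edgeR adjusted p = 0.197).

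Ftl1 (ENSMUSG00000050708, chr7:45457944-45459884, minus strand), the chain that aids the formation of the iron core, was at 151, 142 and 127 CPM in CK, at 148, 130 and 121 CPM in DCM and at 124, 119 and 111 CPM in SPM. SPM libraries were all below CK, and the DCM libraries overlapped with both groups. Ftl1 fell by 0.25 ± 0.08 on the log2 scale in SPM compared to CK (edgeR adjusted p = 0.038), with -0.26 without SPM replicate 2 (edgeR adjusted p = 0.126) and -0.07 with the GC offset (edgeR adjusted p = 0.473). It passed in 2 of the 6 fits that left out 1 library, and was lost also without CK replicate 1 or 2 or SPM replicate 3. The other differences were -0.07 ± 0.09 in DCM compared to CK (edgeR adjusted p = 0.678) and -0.18 ± 0.08 in SPM compared to DCM (edgeR adjusted p = 0.158), and the latter became 0.03 with the GC offset. Reads of Ftl1 can be shared with its near copy Ftl1-ps1, which held 33 to 85 counts per library against 3421 to 5881 for Ftl1, and no source used here gives how shared reads were counted. The FPKM ratio of Fth1 to Ftl1 was 18.2, 19.5 and 21.2 in CK, 25.9, 26.9 and 25.8 in DCM and 26.4, 25.9 and 26.3 in SPM. The ratio was thus higher in each diabetic library, with or without spermine, than in each CK library, a description chosen after the values were seen.

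**Figure D4:**
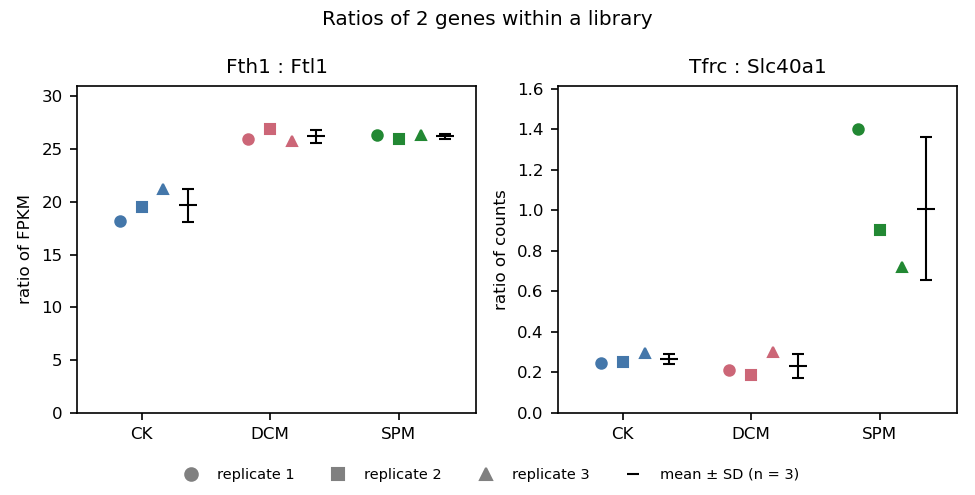
Ratio of Fth1 to Ftl1 FPKM (left) and of Tfrc to Slc40a1 counts (right) in each library of CK, DCM and SPM, with the mean ± SD (n = 3) and y axes from 0. The ferritin ratio is 18.2 to 21.2 in CK and 25.8 to 26.9 in the DCM and SPM libraries, and the uptake to export ratio is 0.718 to 1.40 in SPM and at most 0.299 elsewhere.

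Heme oxygenase 1 rose in diabetic hearts and showed no detectable change with spermine. Hmox1 (ENSMUSG00000005413, chr8:75093621-75100589, plus strand) was at 21.9, 17.1 and 20.0 CPM in CK, at 30.2, 26.6 and 27.5 CPM in DCM and at 28.6, 24.5 and 22.2 CPM in SPM. DCM and SPM libraries were all above CK, and SPM overlapped with DCM. In FPKM, which carries no normalization factor, SPM replicate 3 (13.8) was below CK replicate 1 (14.6). The rise in DCM compared to CK was 0.52 ± 0.10 on the log2 scale, or 1.43-fold (edgeR adjusted p = 0.00807), and passed in each of the 6 fits that left out 1 library, with values from 0.42 to 0.60. Without CK replicate 1 it reached 0.60 and became a DEG. SPM compared to CK gave 0.35 ± 0.12 (edgeR adjusted p = 0.0556), and SPM compared to DCM gave -0.16 ± 0.10, with an interval from -0.36 to 0.04 (edgeR adjusted p = 0.275).

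The reductase Blvrb, which acts on biliverdin isomers and flavins, was lower in SPM than in the other groups. Blvrb (ENSMUSG00000040466, chr7:27447978-27466144, plus strand) was at 25.8, 23.0 and 18.1 CPM in CK, at 20.4, 20.99 and 18.9 CPM in DCM and at 16.3, 13.4 and 14.1 CPM in SPM. The SPM libraries were all below the other groups, and DCM lay within the range of CK. Blvrb fell by 0.62 ± 0.14 on the log2 scale in SPM compared to CK (edgeR adjusted p = 0.012) and by 0.46 ± 0.10 in SPM compared to DCM (edgeR adjusted p = 0.0171), and DCM compared to CK gave -0.15 ± 0.12 (edgeR adjusted p = 0.497). Without SPM replicate 2 the values were -0.56 against CK (edgeR adjusted p = 0.0564) and -0.40 against DCM (edgeR adjusted p = 0.0987). Against DCM the fall was also lost without DCM replicate 1 or 2 (edgeR adjusted p = 0.0551 and 0.0694). The DEG call against CK was also lost without CK replicate 1 (-0.51, edgeR adjusted p = 0.0369) and with the GC offset (-0.50, edgeR adjusted p = 0.0224). The GC offset left the fall against DCM at -0.34 (edgeR adjusted p = 0.0673). Blvrb is abundant in red cells, and of the 6 erythroid markers tested 4 were DEGs lower in SPM compared to DCM and 5 in SPM compared to CK (0 and 3 of 7 past the adjusted p without SPM replicate 2), with Hbb-bs at 376 to 651 CPM in SPM against 801 to 1687 CPM in CK. Over all genes, 129 of 14493 were DEGs lower in SPM compared to DCM and 601 of 14574 in SPM compared to CK. Without SPM replicate 2, 0.486% and 10.4% of all genes were past the adjusted p. The part of red cells in the Blvrb result was not tested.

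Other genes of the pathway were followed through 9 lists. Their counts stand beside the shares of all genes past the adjusted p, which were 10.4% in DCM compared to CK (5.28% higher), 16.6% in SPM compared to DCM and 27.4% in SPM compared to CK, and 0.486% and 10.4% in the SPM comparisons without SPM replicate 2. In the list of iron uptake and endosomal release, 1 gene was higher and 1 lower of 9 tested past the adjusted p in DCM compared to CK, 2 were higher in SPM compared to DCM, and 2 were higher and 1 lower of 10 in SPM compared to CK. With SPM replicate 2 left out, 1 was higher in SPM compared to DCM and the counts against CK were 2 and 1. Apart from the members, the gene that moved was Lcn2, a secreted carrier of iron-binding siderophores and an acute-phase product. Lcn2 was at 3.70, 2.71 and 2.69 CPM in CK, at 8.14, 7.14 and 7.88 CPM in DCM and at 14.3, 11.7 and 8.56 CPM in SPM, in 3 steps without overlap. It rose by 1.35 ± 0.18 on the log2 scale in DCM compared to CK (edgeR adjusted p = 0.000528) and by 1.92 ± 0.21 in SPM compared to CK (edgeR adjusted p = 0.0011, and 0.00619 without SPM replicate 2). In SPM compared to DCM it gave 0.58 (edgeR adjusted p = 0.0424), and the test was passed in 1 of the 6 fits that left out 1 library, with 0.57 and an edgeR adjusted p of 0.133 without SPM replicate 2. Neutrophils are rich in Lcn2, and the 10 neutrophil markers summed to 5.64 to 25.7 CPM in CK, 12.9 to 28.8 CPM in DCM and 31.0 to 62.0 CPM in SPM, with Mpo at 0 in 7 and Elane at 0 in 6 of the 9 libraries. Transferrin (Trf) had 0 to 3 counts per library, and its level was not interpretable, since it overlaps another gene on its strand and no source used here gives how overlaps were counted.

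Of the ferroxidases that work with ferroportin, Cp (ceruloplasmin) rose in each comparison, though not against DCM with the GC offset. Cp was at 64.6, 77.4 and 73.6 CPM in CK, at 98.6, 90.8 and 101 CPM in DCM and at 150, 136 and 128 CPM in SPM, again in 3 steps without overlap. Within SPM this was also the order of the hepatocyte sums, whose part in the Cp result was not tested. Its log2 fold changes were 0.43 ± 0.08 in DCM compared to CK (edgeR adjusted p = 0.00591), 0.51 ± 0.08 in SPM compared to DCM (edgeR adjusted p = 0.00939) and 0.94 ± 0.09 in SPM compared to CK (edgeR adjusted p = 0.000625). With SPM replicate 2 left out the last values were 0.53 and 0.95 (edgeR adjusted p = 0.0447 and 0.00355). The GC offset left the value against DCM at 0.27 (edgeR adjusted p = 0.0621). Of the 3 genes tested in the list of iron export and ferroxidases, Cp was past the test as higher and Slc40a1 as lower in both SPM comparisons, and Slc40a1 in neither without SPM replicate 2.

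Among the iron regulatory proteins, which bind the hairpins printed above, Ireb2 rose with spermine and Aco1 did not pass. Ireb2 was at 21.4, 24.8 and 26.2 CPM in CK, at 22.1, 19.6 and 23.8 CPM in DCM and at 31.0, 27.6 and 29.7 CPM in SPM. SPM libraries were above all others. The log2 fold change was 0.43 ± 0.09 in SPM compared to DCM (edgeR adjusted p = 0.0159) and 0.28 ± 0.09 in SPM compared to CK (edgeR adjusted p = 0.0496), and the latter turned to -0.04 with the GC offset. With SPM replicate 2 left out the values were 0.48 and 0.33 (edgeR adjusted p = 0.0571 and 0.0915). Leaving out 1 library at a time, the test was passed in 3 of 6 fits against DCM, lost also without DCM replicate 1 or 2, and in 1 of 6 against CK, that without CK replicate 3. The GC offset left 0.10 against DCM (edgeR adjusted p = 0.424). Aco1 was at 59.5 to 64.8 CPM in CK, 60.3 to 67.7 CPM in DCM and 54.2 to 58.0 CPM in SPM, with edgeR adjusted p values of 0.949, 0.127 and 0.0817. Of 4 genes in this list, 0 passed in DCM compared to CK, 2 were higher in SPM compared to DCM and 1 was higher in SPM compared to CK, and 0 passed in either without SPM replicate 2.

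Flvcr2, Cd163 and Hmox1 rose in diabetic hearts among the genes of heme handling. In the list of heme breakdown and transport, 3 of 10 genes tested rose and 0 fell in DCM compared to CK, 2 rose and 1 fell of 12 in SPM compared to DCM, and 3 rose and 2 fell of 12 in SPM compared to CK. With SPM replicate 2 left out these were 0 and 0 in SPM compared to DCM, and 2 and 1 in SPM compared to CK. The median log2 fold changes were 0.12, 0.06 and 0.36, against 0.00, 0.01 and 0.00 over all genes tested. The heme transporter gene Flvcr2 was at 8.70, 8.62 and 9.83 CPM in CK, at 15.1, 12.5 and 14.3 CPM in DCM and at 10.3, 12.5 and 12.5 CPM in SPM, and rose by 0.63 ± 0.12 in DCM compared to CK (edgeR adjusted p = 0.00648). Its 0.37 in SPM compared to CK (edgeR adjusted p = 0.041) became 0.33 without SPM replicate 2 (edgeR adjusted p = 0.18) and passed in 2 of the 6 fits that left out 1 library. Cd163, the macrophage receptor that takes up hemoglobin bound to haptoglobin, was at 44.5 to 49.5 CPM in CK, 62.5 to 65.0 CPM in DCM and 68.4 to 87.0 CPM in SPM. It rose by 0.44 ± 0.07 in DCM compared to CK (edgeR adjusted p = 0.00226). In that comparison the macrophage list had 7 genes lower and 2 higher of 15, Cd163 being among the higher. The shares of all genes were 5.11% lower and 5.28% higher. In SPM compared to CK, Cd163 rose by 0.71 ± 0.09 (edgeR adjusted p = 0.00156, and 0.00974 without SPM replicate 2). Haptoglobin (Hp) and hemopexin (Hpx), liver products that bind free hemoglobin and heme, were DEGs in SPM compared to DCM. Hp was at 34.5, 20.2 and 10.1 CPM and Hpx at 20.96, 9.04 and 0 CPM in SPM replicates 1 to 3. This was the order of the hepatocyte sums, but Hpx is itself part of those sums. Both calls were lost without SPM replicate 2 (edgeR adjusted p = 0.0566 for each) and without any 1 DCM library, and the Hpx libraries overlapped between the groups.

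The NRF2 and BACH1 list holds the regulators of Hmox1 and their antioxidant targets. Past the adjusted p, 2 of 14 genes were higher and 0 lower in DCM compared to CK, 2 higher and 2 lower of 15 in SPM compared to DCM, and 4 higher and 3 lower of 14 in SPM compared to CK. With SPM replicate 2 left out, 0 were higher and 1 lower in SPM compared to DCM, and 2 higher and 1 lower in SPM compared to CK. Nqo1, a quinone reductase, was at 54.2, 46.0 and 51.7 CPM in CK, at 84.5, 72.9 and 87.6 CPM in DCM and at 90.9, 78.9 and 70.2 CPM in SPM. Like Hmox1, its DCM and SPM libraries were all above CK, with 0.69 ± 0.09 in DCM compared to CK (edgeR adjusted p = 0.000453), 0.66 ± 0.10 in SPM compared to CK (edgeR adjusted p = 0.00305, and 0.0145 without SPM replicate 2) and -0.03 ± 0.10 in SPM compared to DCM (edgeR adjusted p = 0.855). Gclm, the modifier subunit of the first enzyme of glutathione synthesis, went another way, at 11.9, 11.6 and 9.73 CPM in CK, at 11.8, 16.01 and 15.3 CPM in DCM and at 6.71, 6.40 and 6.90 CPM in SPM. All SPM libraries were below the rest, with a fall of 1.10 ± 0.13 in SPM compared to DCM (edgeR adjusted p = 0.00652), and of 1.08 without SPM replicate 2 (edgeR adjusted p = 0.0224). Srxn1, which repairs oxidized peroxiredoxins, fell by 0.59 ± 0.10 in SPM compared to DCM (edgeR adjusted p = 0.0112), and that value was -0.57 without SPM replicate 2 (edgeR adjusted p = 0.0566).

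**Figure D5:**
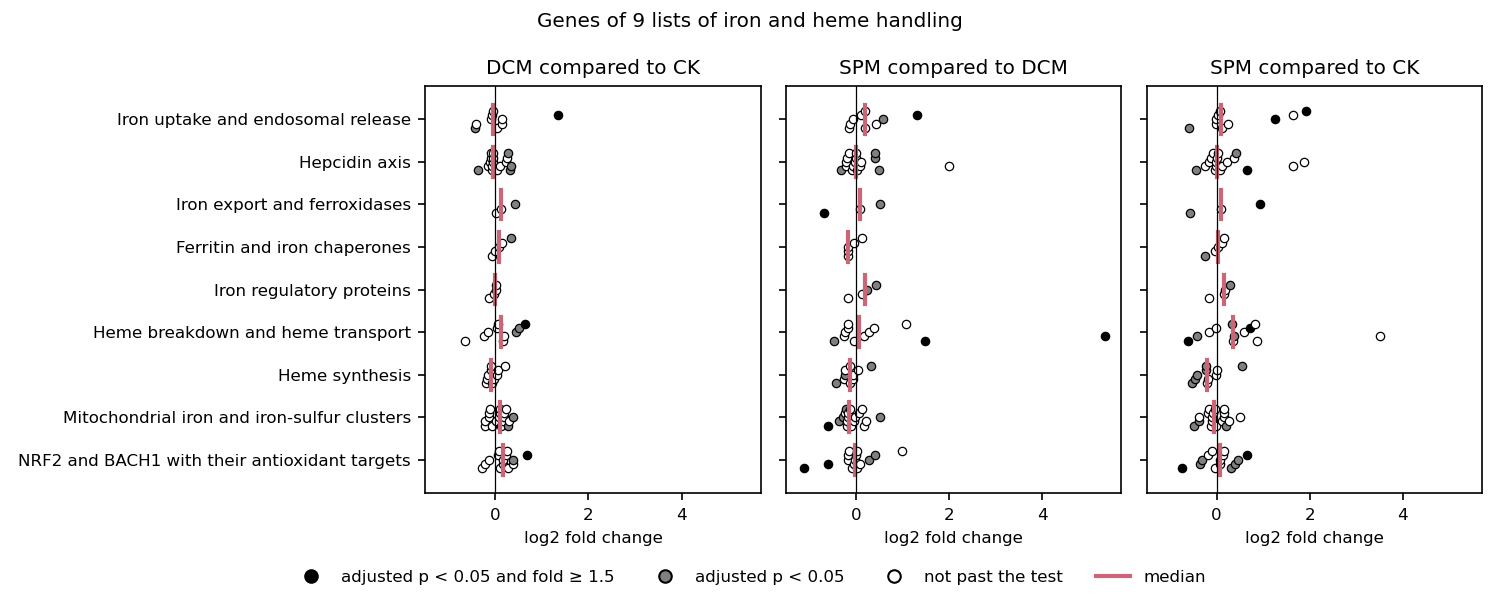
Log2 fold change (x axis) of each tested gene in 9 lists of iron and heme handling (y axis) for DCM compared to CK, SPM compared to DCM and SPM compared to CK, with the list median as a red bar. Filled points are DEGs and grey points passed the adjusted p alone, and the point at 5.35 in SPM compared to DCM is Hpx.

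Hepcidin is induced through BMP receptors by signals that other organs also carry. In the hepcidin axis list, 3 genes were higher and 1 lower of 17 past the adjusted p in DCM compared to CK, 3 higher and 1 lower of 17 in SPM compared to DCM, and 2 higher and 1 lower of 18 in SPM compared to CK. With SPM replicate 2 left out, 1 was higher in SPM compared to DCM, and 1 was higher and 1 lower of 17 in SPM compared to CK. Bmp6, the ligand by which iron raises hepcidin in the liver, was at 96.6 to 105 CPM in CK, 113 to 131 CPM in DCM and 101 to 113 CPM in SPM, with 0.27 ± 0.08 in DCM compared to CK (edgeR adjusted p = 0.0414). That pass was lost with the replicate block (edgeR adjusted p = 0.0693), with limma at either FPKM offset (limma adjusted p = 0.142 and 0.141) and in 4 of the 6 fits that left out 1 library, without CK replicate 2 or 3 or DCM replicate 1 or 2 (edgeR adjusted p = 0.0912 to 0.172). The BMP receptor Bmpr2 rose by 0.66 ± 0.11 in SPM compared to CK (edgeR adjusted p = 0.00505), by 0.65 without SPM replicate 2 (edgeR adjusted p = 0.0222), and by 0.41 with the GC offset, short of the fold limit. Id1 and Smad7, target genes of this signal, passed in no comparison, with edgeR adjusted p values from 0.209 to 0.681.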

How the data were processed

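Messenger RNA of 9 heart libraries was sequenced by the authors on an Illumina instrument after oligo(dT) enrichment. The authors filtered reads with fastp and deposited raw gene counts for all libraries, keyed by Ensembl identifier. The submitters' processing notes name Bowtie 0.12.2 and the builds mm8 and mm9 with no role, and no source used here gives the counting tool. FPKM per library were deposited as well and equal counts over gene length and library total. Symbols and coordinates came from GENCODE M21 (GRCm38) for 22820 of 22851 identifiers, so the coordinates printed are those of the annotation and not of the alignment.

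The members, gene lists and marker lists were chosen with earlier results of these data known. Each pair of groups was fitted with edgeR 4.0.16 in R 4.3.3 (low-count filter filterByExpr, TMM factors, quasi-likelihood test) over all genes, with Benjamini-Hochberg adjustment. Normalized CPM used TMM factors over the 9 libraries. Genes outside the members were named mainly by a fixed rule: up to 3 DEGs of smallest p per list and comparison, Aco1, Ireb2, Trf, Bmp6, Id1, Smad7 and Nqo1 whatever their values, the 2 most abundant markers per marker list, and the 2 genes whose levels followed each member DEG most closely. The abundant neutrophil markers S100a9 and Csf3r entered only through the sum. Markers at 0, Ftl1-ps1, Alas1 and Alad were named outside the rule. On simulated counts with 200 changed genes, 82.6%, 87.3% and 77.5% of those changed at least 2-fold were recovered in DCM compared to CK, SPM compared to DCM and SPM compared to CK (14402, 14493 and 14574 genes). False calls numbered 12, 4 and 4. These shares do not cover changes under 2-fold, such as those of all members but Tfrc. The simulated libraries were independent, which SPM replicate 2 may not be. Alternatives were DESeq2 1.42.0, limma 3.58.1 on log2(FPKM + 0.1) or log2(FPKM + 1), RLE factors, other filters and fold limits, a joint fit, a GC offset, mitochondrial genes left out, a replicate block and each library left out. Library totals of 29901300 to 39718680 counts set the counting error, which matters most for genes of low count. Listed genes that matched no table entry, Hamp and Hamp2 among them, were not analysed here.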

Additional observations from a re-analysis of the deposited data

How the results depend on the processing

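Of 1277 values of single genes under other settings, 1163 kept their direction and their side of the DEG limits, 48 fell short of them, 45 newly reached them and 21 changed sign. The cause of these shifts was not tested. For the members, DEGs in DCM compared to CK numbered 2 at a fold limit of 1.3, beside 1100 of 14402 genes. With no fold limit they numbered 3, beside 1497. With single libraries left out they numbered 0 to 1, the 1 being Hmox1 without CK replicate 1, beside 578 of 14882 genes. In SPM compared to DCM member DEGs numbered 1 to 2 with single libraries left out, 1 without SPM replicate 1, SPM replicate 2 or any DCM replicate. Over all genes those fits gave 56 to 791 DEGs. In SPM compared to CK member DEGs numbered 4 at a fold limit of 1.3, beside 2532 of 14574 genes. With no fold limit they numbered 5, beside 3989. Limma on log2(FPKM + 0.1) and log2(FPKM + 1) gave 4 each, beside 1204 and 686 of 12548 genes. With single libraries left out, member DEGs numbered 1 to 3, beside 771 to 1589 over all genes. The number was 1 without CK replicate 1 or SPM replicate 2, beside 996 and 771. The replicate block gave 0, 2 and 3 member DEGs in the 3 comparisons. Over all genes it gave 568, 610 and 1282 DEGs, against 625, 521 and 1342 without it. Residuals of equal replicate numbers correlated at -0.07 to 0.20 and those of other numbers at -0.28 to 0.22. This gave no sign that equal numbers mark pairs, but with 3 libraries per group it cannot exclude pairs. DEGs over all genes in SPM compared to DCM fell to 308 and 156 with limma at either offset, 125 with the GC offset, 280 and 73 without DCM replicate 1 or 2 and 56 without SPM replicate 2, and were 791 without SPM replicate 3. Those of SPM compared to CK were 686 with limma on log2(FPKM + 1) and 771 without SPM replicate 2, and those of DCM compared to CK were 412 with limma on log2(FPKM + 1). Tfrc was a DEG in both SPM comparisons under each setting. Fth1 in DCM compared to CK did not pass with limma on either FPKM scale. The sign changes were all in values that passed no test there or under the other setting, except that of Ireb2 below. With the GC offset, Ftl1 (0.0268) and Bmp6 (0.0141) in SPM compared to DCM, and Ireb2 (-0.0386), Id1 (0.0154) and Smad7 (0.122) in SPM compared to CK changed sign. With limma, Aco1 in DCM compared to CK (-0.0787 and -0.0746) and Slc11a2 (-0.0112 and -0.00977) and Bmp6 (-0.0186 and -0.0180) in SPM compared to CK did so. With single libraries left out, values of DCM compared to CK ran from -0.362 to 0.104 for Tfrc, -1.07 to 0.122 for Hp, -0.0427 to 0.0485 for Aco1 and -0.0830 to 0.21 for Id1. Those of Nqo1 in SPM compared to DCM ran from -0.14 to 0.0495 and those of Smad7 in SPM compared to CK from -0.0679 to 0.000441.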

Other observations

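Heme synthesis uses the iron that these genes supply. Of 10 heme synthesis genes tested, 0 passed the adjusted p in DCM compared to CK, 1 was higher and 2 lower in SPM compared to DCM, and 1 was higher and 5 lower in SPM compared to CK, beside 10.4%, 16.6% and 27.4% of all genes. Leaving out SPM replicate 2, 0 passed in SPM compared to DCM, and 1 was higher and 2 lower in SPM compared to CK, beside 0.486% and 10.4% of all genes. The list median in SPM compared to CK was -0.21 on the log2 scale. The higher gene was Alas1, the first and rate-limiting enzyme outside red cells, with 0.54 ± 0.08 in SPM compared to CK (edgeR adjusted p = 0.00282, and 0.0148 without SPM replicate 2). The lower genes included Alad, the enzyme after it, with -0.53 ± 0.07 (edgeR adjusted p = 0.00164, and 0.0119 without SPM replicate 2). Both were chosen after their values were seen.

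Among 18 genes of mitochondrial iron and iron-sulfur clusters, 2 were higher in DCM compared to CK, 1 was higher and 4 lower in SPM compared to DCM, and 1 was higher and 2 lower in SPM compared to CK. Of all genes, 10.4%, 16.6% and 27.4% passed in these comparisons. Leaving out SPM replicate 2, the counts were 0 in SPM compared to DCM, and 0 higher and 2 lower in SPM compared to CK. The shares of all genes were then 0.486% and 10.4%. Iba57, an assembly factor of iron-sulfur clusters, was at 49.9, 58.7 and 51.9 CPM in DCM and at 28.0, 34.8 and 42.7 CPM in SPM. Its fall of 0.61 ± 0.13 in SPM compared to DCM (edgeR adjusted p = 0.0184) was -0.60 without SPM replicate 2 (edgeR adjusted p = 0.0681), and was also lost without DCM replicate 1 or 2 and with the GC offset (edgeR adjusted p = 0.0531, 0.0895 and 0.0847). In the list of ferritin and iron chaperones, Fth1 and Ftl1 were the genes that passed in any comparison, among 5 tested, and 0 passed in the SPM comparisons without SPM replicate 2.

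Of 10 atrial cardiomyocyte markers, led by Nppa and Myl4, 1 was higher and 3 lower in DCM compared to CK, 2 were higher in SPM compared to DCM, and 2 were higher and 1 lower in SPM compared to CK. Of 8 cardiomyocyte markers, led by Myh6 and Atp2a2, 0 passed in DCM compared to CK, 1 was lower in SPM compared to DCM, and 1 was higher and 5 lower in SPM compared to CK. Past the adjusted p, 5.28% of all genes were higher and 5.11% lower in DCM compared to CK. The shares were 8.87% and 7.76% in SPM compared to DCM, and 13.0% and 14.3% in SPM compared to CK. Leaving out SPM replicate 2, 0 of the 8 cardiomyocyte markers passed in either SPM comparison, beside 0.486% and 10.4% of all genes. Of the atrial markers 1 passed, as lower in SPM compared to CK. The most abundant retina markers, Sag and Gnat1, were under 1 CPM in each library.

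As a description over 9 libraries and 12609 genes at a mean of 1 CPM or more, the levels that followed Tfrc most closely were those of Sorbs2 (Pearson r = 0.990) and Zeb1 (0.984). Those closest to Slc40a1 were Amigo1 (0.980) and Scube1 (0.967), and those closest to Blvrb were Pik3r6 (0.983) and Mgat4b (0.981). The libraries share group, depth and base composition trends, and these values carry no p.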
